A study of Homo sapiens with 6 samples.

Results

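The gene set described here comprised the cyclins, the cyclin-dependent kinases (CDKs), their activating kinase, adaptors and inhibitors, the CDC25 and WEE1 enzymes, the RB and E2F families, MuvB subunits with B-MYB and FOXM1, and the kinases and ubiquitin ligase activators of mitotic entry and exit. Members were chosen by gene symbol from a list of 52 names that excluded CDKN1A, and all 52 were found among the 38637 genes of the deposited expression table. Of these, 50 had a mean level of at least 1 TPM (a level corrected for transcript length and scaled to the library total) over the 6 libraries and were tested together with all 13980 genes at that level. The other members, CCND2 and CDKN1C, were too low to be tested.

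The libraries were PolyA-Seq libraries, which read polyadenylated mRNA, from HCCLM3-SR cells. This line is a sorafenib-resistant derivative of HCCLM3, a human hepatocellular carcinoma line, obtained by growth in rising doses of sorafenib, an inhibitor of RAF and receptor tyrosine kinases used against liver cancer. The comparison asked what changed in these cells when cDCBLD2, a circular RNA that originates from the DCBLD2 gene, was depleted. Cells of the knockdown group (si-cDCBLD2, n = 3) received an siRNA against the circle and cells of the control group (siCTRL, n = 3) a control siRNA. Both groups were under 5 µM sorafenib and had their siRNA for 3 days, so no library came from cells without the drug. The model was limited to 1 resistant line and 1 siRNA sequence. The labels do not say whether replicates were separate cultures, so every p-value below measures only the spread between these libraries.

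Cyclins are the regulatory subunits that switch CDKs on, and each class of cyclin accumulates in its own phase of the cell cycle. D and E cyclins with CDK4, CDK6 and CDK2 phosphorylate the RB family, which releases E2F factors to transcribe the genes of DNA synthesis. The MuvB core then exchanges its repressive partners for B-MYB and FOXM1, which drive the genes of G2 and mitosis, CDC25 phosphatases release CDK1 from the brake set by WEE1, and the anaphase-promoting complex (APC/C) ends mitosis by marking cyclin B for destruction. Since these genes are transcribed in phases, their levels in a bulk library depend on the phases the cells were in. Fewer cells of a kind and less RNA per cell cannot be told apart in such libraries.

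DCBLD2, the host gene of the circle, measured 58.1, 25.9 and 31.6 TPM in replicates 1, 2 and 3 of si-cDCBLD2 and 71.5, 48.5 and 50.7 TPM in siCTRL (log2 fold change -0.61, limma adjusted p = 0.253, and 0.0139 once the replicate number was entered as a block). The libraries read polyadenylated mRNA and a closed circle has no poly(A) tail, so this value mostly reflects the linear mRNA. It does not measure how far the circle was depleted. Recovered read totals, which are lower bounds, ran from 17489227 to 23058947 per library, and a tested member held between 64 and 10292 reads in a library. Of the liver lineage markers, KRT8, KRT18 and HNF4A were present, with HNF4A at 22.9 to 31.3 TPM, whereas ALB, AFP and APOA1 stayed at or below 2.08 TPM in every library. The summed level of the 9 hepatocyte or HCC markers was 5840 to 7009 TPM with si-cDCBLD2 and 4830 to 5649 TPM with siCTRL, and KRT8 and KRT18 made up nearly all of it. Among markers of other cell types, the sum of 5 fibroblast genes was 5.61 to 17.9 TPM against 1.91 to 4.28 TPM, that of 4 leukocyte genes was 97.1 to 126 TPM against 91.5 to 112 TPM and nearly all CD68, and that of 3 endothelial genes was 4.50 to 5.19 TPM against 3.70 to 5.72 TPM. The fibroblast sum was mostly COL1A1 and COL3A1. Its highest value came from replicate 1 of si-cDCBLD2, with COL1A1 at 11.2 TPM and COL1A2 at 2.67 TPM. COL1A2 was at 0 in the other libraries, and PDGFRB and DCN did not exceed 0.314 TPM in any. CD3E was at 0 in all 6 libraries, and VWF, CDH5 and PTPRC did not exceed 0.411 TPM. The part of these marker levels in the differences of the members was not tested.

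Most members had lower levels after cDCBLD2 knockdown. The largest differences were those of the repressor E2F8, the RB relative RBL1, the MuvB subunit LIN54, cyclin A2 and CDK6, followed by RBL2, AURKA, cyclin B2 and E2F7, whereas cyclin E1 had a higher level. This order is that of the values as measured, and after a correction for GC content described below the most negative values were those of E2F8 (-0.65), CDC20 (-0.50), AURKA (-0.45) and cyclin A2 (-0.44). A negative log2 fold change was found for 44 of 50 tested members (88.0%, beside 62.4% of all genes tested), and the members' median was -0.29 beside -0.08 for all genes. With upper-quartile scaling, and likewise after the GC correction, 37 of 50 were negative. The share of all genes was not counted there. The members' medians were -0.20 and -0.15, beside 0.0063 and 0.0044 for all genes. The differences were moderate in size and none of the 50 reached a mean log2 fold change of 1 in size.

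In the limma fit without a replicate term, RBL2 was the 1 member that fell at an adjusted p under 0.05 (2.0% of members, beside 0.629% of all genes), and 0 members rose (beside 0.250% of all genes). At an unadjusted p under 0.05 there were 24 members (48.0%, beside 26.1% of all genes), and limma-voom on recovered reads called 2 members lower (beside 1.72% of all genes) and 0 higher (beside 1.29%). Same-numbered libraries of the groups shared deviations, so the number was also entered as a block (p-values called blocked below, against unblocked without it). The labels do not say what a shared number marks, so the blocked calls rest on treating the numbers as pairs. With the replicate block 26 members fell (52%, beside 25.0% of all genes), 3 rose (6.0%, beside 9.94% of all genes) and 21 passed in neither direction. The 26 were CCNA2, CCNB1, CCNB2, CCNH, MNAT1, CDK1, CDK2, CDK6, CKS1B, CKS2, CDKN1B, CDKN3, CDC25B, CDC25C, WEE1, RB1, RBL1, RBL2, E2F5, E2F7, E2F8, LIN54, PLK1, AURKA, CDC20 and SKP2, and the 3 were CCND3, CCNE1 and FZR1. Here "fell" and "rose" refer to this blocked fit unless the fit without the block is named. With an added threshold of 1 on the size of the log2 fold change, 0 members were called in either fit (beside 0.0787% of all genes lower and 0.0501% higher without the block, and 0.751% and 0.458% with it).

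**Figure D1:**
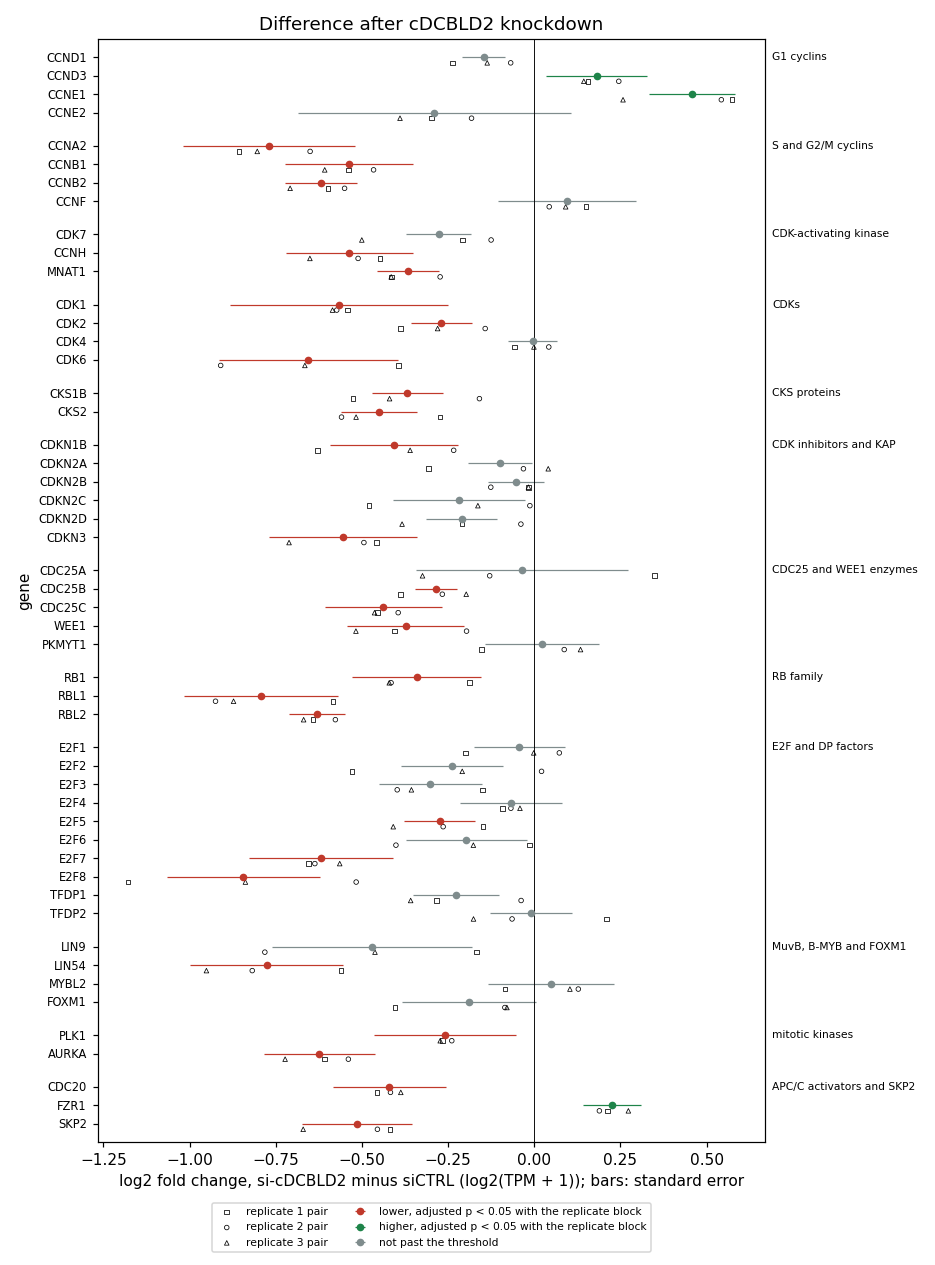
Log2 fold change on the log2(TPM + 1) scale (horizontal axis) of the 50 tested members, grouped by role (vertical axis), as filled points with standard errors of the fit without the block and coloured by the call of the blocked fit. The open symbols are the differences within each replicate number, and those of CDK1 lie close together although its standard error is wide. In all 3 pairs 38 members lie below 0, a count for which the share of all genes was not taken. The medians of all genes in the pairs were also negative (-0.08, -0.07 and -0.11).

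Replicate 1 stood apart in both groups. In si-cDCBLD2 it exceeded the mean of replicates 2 and 3 by a median of 0.32 on the log2 scale over the members, beside 0.076 over all genes, and in siCTRL by 0.34, beside 0.035. It was the highest of its group in both groups for 35 members (70.0%, beside 38.9% of all genes) and the lowest in both for 3 members, CDKN1B, WEE1 and RBL2 (6.0%, beside 26.9%). Leaving out replicate 1 of both groups was an alternative chosen after the data were seen. Without a block it gave 25 of 50 members lower (beside 25.3% of all genes) and 1 of 50 higher (beside 9.68%). The blocked fit of the remaining libraries called 28 of 50 lower (beside 28.0% of all genes), namely each of the 26 with E2F3 and LIN9, and 3 of 50 higher (beside 11.3%). Leaving out replicate 1 of si-cDCBLD2 alone gave 19 of 50 lower (beside 19.8% of all genes) and 0 higher (beside 4.64%) without a block. Leaving out any 1 of the other 5 libraries gave 0 in both directions. The median difference within replicate numbers was -0.35, -0.24 and -0.39 for replicates 1, 2 and 3, beside -0.08, -0.07 and -0.11 for all genes.

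Transcript base composition moved with the result. The 26 members that fell had a median GC content of 43.1%, the other 24 tested members one of 54.6%, and all genes tested one of 49.0%. Once the GC trend of each library had been removed (the GC offset), 17 members fell in the blocked fit (34.0%, beside 12.2% of all genes) and 1 rose, CCNE1 (2.0%, beside 13.1%). Of the 26, CCNH, CDK1, CDKN1B, CKS1B, CKS2, E2F5, MNAT1, RB1, SKP2 and WEE1 no longer passed, 16 still did, and E2F4 was added. Among all 50, 9 members turned from a negative to a positive value and 2 from a positive to a negative one. With upper-quartile scaling and the block, chosen after the data were seen, 23 members fell (46.0%, beside 15.3% of all genes) and 3 rose (6.0%, beside 16.4%). A set of 15 members fell in the blocked fit, in both of these versions of it, and in the blocked fit without replicate 1 of both groups. They also fell in limma-voom on recovered reads with the block. All of these fits held the block, and limma-voom without it called 2 members lower. The share of all genes that passed in all of these fits was not counted. These were AURKA, CCNA2, CCNB1, CCNB2, CDC20, CDC25B, CDC25C, CDK6, CDKN3, E2F7, E2F8, LIN54, PLK1, RBL1 and RBL2.

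**Figure D2:**
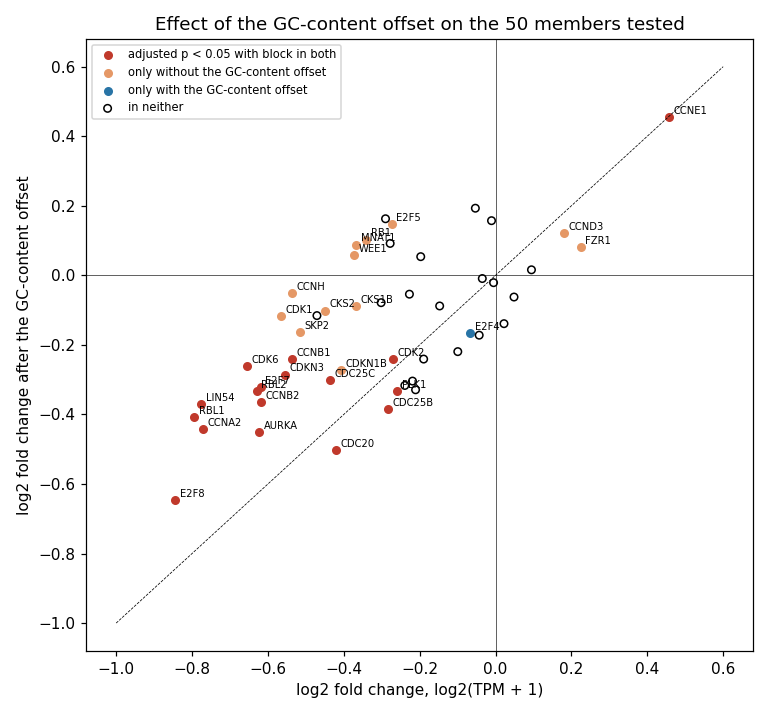
Log2 fold change of the 50 tested members as measured (horizontal axis) and after the GC offset (vertical axis), with 1 point a gene, coloured by the blocked fits in which it passed, and a dashed line of equal values. E2F8, CCNA2 and RBL1 stay well below 0, whereas RB1, MNAT1, WEE1 and E2F5 cross to just above 0.

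**Figure D3:**
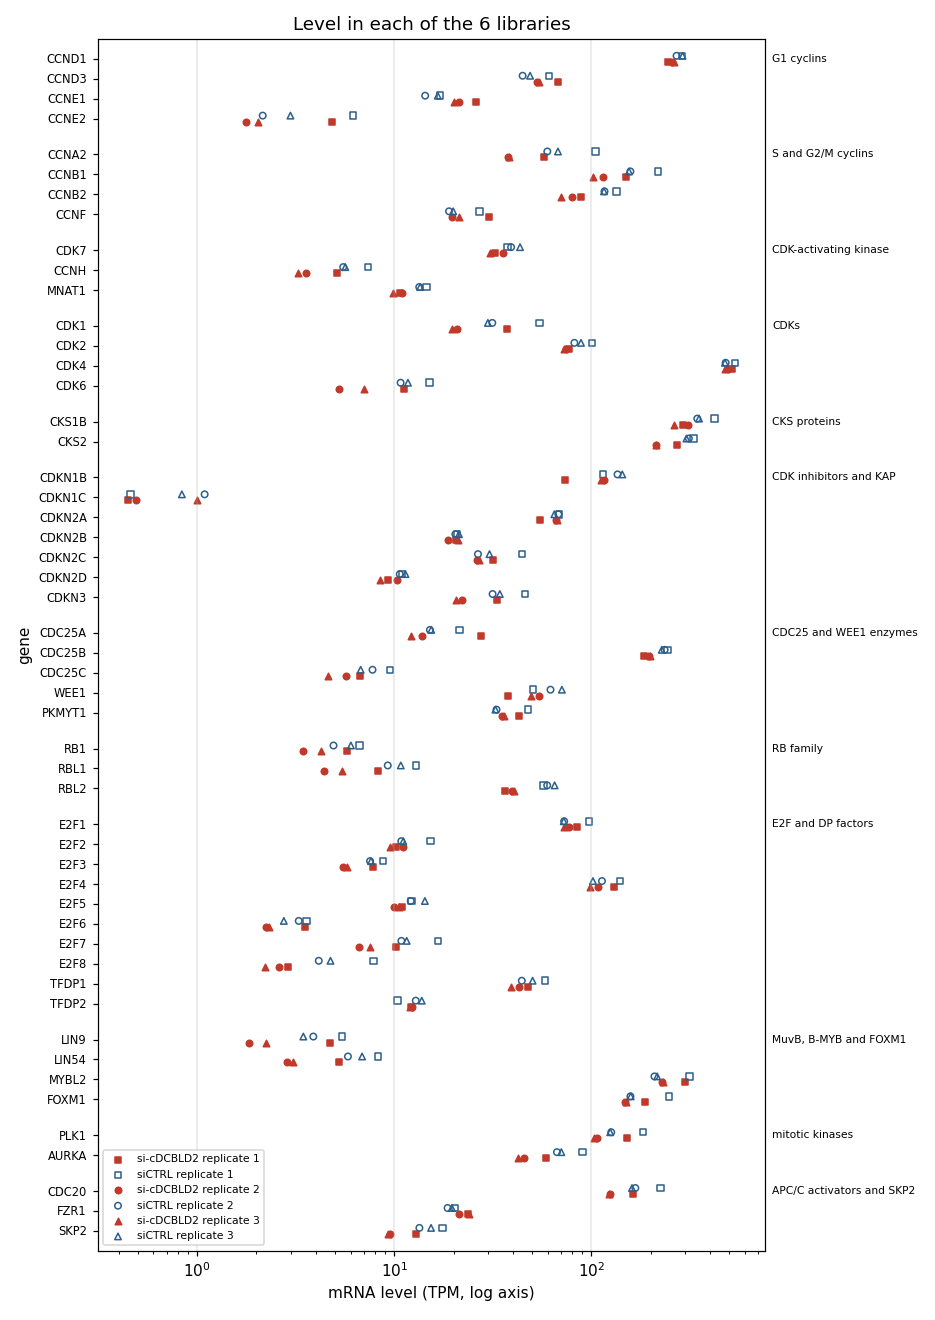
Level in TPM (horizontal log axis) of 51 members in each of the 6 libraries, grouped by role (vertical axis), with filled symbols for si-cDCBLD2, open symbols for siCTRL, a shape for each replicate number, and CCND2 left out. CDK4 and CKS1B lie furthest to the right, and the groups of CCNB2, RBL2, AURKA and CCNE1 do not overlap.

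Levels differed widely between members. CDK4 had the highest mean level in TPM, followed by CKS1B, CKS2, CCND1 and MYBL2, and the lowest tested members were E2F6, CCNE2, LIN9 and E2F8. The groups did not overlap for 21 members that were lower after knockdown (42.0%, beside 22.3% of all genes) and 2 that were higher, CCNE1 and FZR1 (4.0%, beside 9.58%). For any single gene an exact permutation test of 3 against 3 libraries cannot go below p = 0.1. In what follows, 3 values in a row are those of replicates 1, 2 and 3, levels are in TPM, and fold changes are differences of log2(TPM + 1), knockdown minus control, with the standard error (SE) of the fit without the block. The counts of each role stand beside 25.0% of all genes lower and 9.94% higher in the blocked fit. A negative log2 fold change was found for 62.4% of all genes.

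Of the 5 G1 cyclins, which start the cycle by activating CDK4, CDK6 and CDK2, 0 fell, 2 rose (CCND3 and CCNE1) and 2 did not pass. Cyclin E1 (CCNE1), the partner of CDK2 at the entry to S phase, measured 25.9, 21.3 and 20.1 TPM with si-cDCBLD2 and 17.1, 14.3 and 16.6 TPM with siCTRL. All knockdown libraries lay above all control libraries. CCNE1 differed by 0.46 ± 0.12 on the log2 scale (limma adjusted p = 0.0945 unblocked and 0.0135 blocked), the largest positive value among the tested members, and it stayed at 0.46 after the GC offset. Cyclin D1 (CCND1), the D cyclin that couples growth factor signals to CDK4 and CDK6, measured 244, 258 and 264 TPM with si-cDCBLD2 and 287, 270.3 and 289.8 TPM with siCTRL. Its groups did not overlap, but neither fit called it (log2 fold change -0.15 ± 0.063, limma adjusted p = 0.199 unblocked and 0.0590 blocked), and an offset for transcript length brought the value to 0.0019. Cyclin D3 (CCND3) had means of 58.5 ± 8.32 and 51.5 ± 8.44 TPM (SD, n = 3 each) after knockdown and in controls, with overlapping groups and each pair higher after knockdown, and rose by 0.18 on the log2 scale (limma adjusted p = 0.462 unblocked and 0.0369 blocked), though not after the GC offset (limma adjusted p = 0.112). Cyclin E2 (CCNE2) was low, at 2.88 ± 1.69 and 3.76 ± 2.12 TPM, and replicate 1 lay 1.006 log2 units above the mean of the other libraries with si-cDCBLD2 and 1.018 with siCTRL. It did not pass (limma adjusted p = 0.675 unblocked and 0.0918 blocked). Cyclin D2 (CCND2) was listed at 0 in all libraries but 1, in which it measured 0.0192 TPM.

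The 250 bases before and 50 bases after the transcript start were available in the RefSeq promoter table (GRCh38.p14) for 41 of 52 members, with 63 entries. They were searched on both strands for 3 motifs known from cell cycle promoters, the CHR element (TTTGAA), at which MuvB complexes bind, the E2F element (TTTNNCGC) and the CCAAT box (CCAAT, bound by NF-Y). Only these exact letters were searched, so an element with other letters was missed. The CHR letters were present in 30.2% of member promoters (19 of 63, from 15 genes) and in 15.2% of all 35116 promoters. The E2F letters were present in 15.9% of member promoters and 6.89% of all, and the CCAAT box in 41.3% and 34.6%. Of the 41 genes, those with the CHR letters in at least 1 entry were 10 of 21 that fell, 1 of 3 that rose (FZR1) and 4 of 17 tested genes that did not pass (CCNF, E2F3, LIN9 and TFDP2). The E2F letters were rarer among genes that fell, with 2 of 21 (CDK1 and RBL1), 0 of 3 that rose and 7 of 17 that did not pass. The CCAAT box was in 14 of 21, 1 of 3 and 7 of 17. No test was made of these shares. The CCNE1 promoter, of the 1 member that rose in all blocked fits run here, held none of the 3 in the 120 bases before its start (chr19:29811871-29811990, + strand, 5′ to 3′, transcript start at the right end):
CCNE1: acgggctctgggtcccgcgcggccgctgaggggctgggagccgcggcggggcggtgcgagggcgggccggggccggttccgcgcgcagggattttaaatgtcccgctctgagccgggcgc

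Of the 4 S and G2/M cyclins, 3 fell (CCNA2, CCNB1 and CCNB2) and CCNF did not pass in either direction. Cyclin A2 (CCNA2), which serves CDK2 in S phase and CDK1 in G2, measured 57.3, 37.7 and 38.3 TPM with si-cDCBLD2 and 105, 59.7 and 67.7 TPM with siCTRL. Replicate 1 was the highest library in each group, and the highest knockdown library, at 57.3 TPM, lay just below the lowest control library, at 59.7 TPM. CCNA2 differed by -0.77 ± 0.25 on the log2 scale (limma adjusted p = 0.125 unblocked and 0.0044 blocked), and the 3 pairs differed by -0.86, -0.65 and -0.80. After the GC offset with the block the value was -0.44, still past the threshold. Cyclin B1 (CCNB1), the partner of CDK1 in mitosis, measured 149, 114 and 101 TPM against 218, 158 and 155 TPM. The groups did not overlap, again by a narrow margin set by replicate 1 of the knockdown. CCNB1 differed by -0.54 ± 0.19 on the log2 scale (limma adjusted p = 0.139 unblocked and 0.0044 blocked), and -0.24 after the GC offset with the block, where it still passed. Cyclin B2 (CCNB2), the other mitotic B cyclin, had means of 79.3 ± 8.90 TPM after knockdown and 122 ± 10.4 TPM in controls (SD, n = 3 each) and a log2 fold change of -0.62 ± 0.11 (limma adjusted p = 0.0544 unblocked and 0.0044 blocked), or -0.37 after the GC offset. Cyclin F (CCNF), an F-box protein of the SCF ubiquitin ligase that binds no CDK, had means of 23.7 ± 5.69 and 21.98 ± 4.45 TPM and a log2 fold change of 0.095 (limma adjusted p = 0.792 unblocked and 0.255 blocked).

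The promoters of the 3 cyclins that fell are shown as the 120 bases before the start, 5′ to 3′, with CHR letters and CCAAT boxes in capitals (ATTGG is the box read on the other strand). They lie at chr4:121823884-121824003 (- strand), chr5:69167030-69167149 (+ strand) and chr15:59105026-59105145 (+ strand). Within these bases CCNB2 held 3 CCAAT boxes and the CHR letters at position -29 from the start, CCNB1 held a pair of CCAAT boxes and CCNA2 held 1. Variants of the CHR letters were not searched for, so CCNB1 and CCNA2 are not shown to lack the element.
CCNA2: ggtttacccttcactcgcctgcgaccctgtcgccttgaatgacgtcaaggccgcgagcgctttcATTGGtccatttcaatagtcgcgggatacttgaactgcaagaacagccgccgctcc
CCNB1: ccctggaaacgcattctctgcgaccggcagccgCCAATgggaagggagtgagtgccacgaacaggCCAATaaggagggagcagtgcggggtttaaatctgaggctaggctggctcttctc
CCNB2: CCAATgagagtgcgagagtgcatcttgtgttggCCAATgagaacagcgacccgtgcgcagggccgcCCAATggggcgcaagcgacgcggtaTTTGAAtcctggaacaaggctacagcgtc

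All 3 subunits of the CDK-activating kinase had lower means, no overlap between groups and a negative log2 fold change, which CDK7 and MNAT1 lost after the GC offset (0.092 and 0.089), and CCNH and MNAT1 fell. Cyclin H (CCNH), its regulatory subunit, measured 5.13, 3.56 and 3.23 TPM with si-cDCBLD2 and 7.36, 5.51 and 5.64 TPM with siCTRL. Every knockdown library was below every control library. CCNH differed by -0.54 ± 0.18 on the log2 scale (limma adjusted p = 0.138 unblocked and 0.0129 blocked), but -0.05 after the GC offset. CDK7, the catalytic subunit, which also phosphorylates RNA polymerase II, measured 32.4, 35.8 and 30.4 TPM against 37.5, 39.1 and 43.4 TPM. Replicate 1 was not high here in either group, and the log2 fold change of -0.28 ± 0.094 did not pass (limma adjusted p = 0.135 unblocked and 0.0527 blocked). The assembly factor MNAT1 had means of 10.5 ± 0.531 and 13.8 ± 0.648 TPM and fell by 0.37 on the log2 scale (limma adjusted p = 0.0835 unblocked and 0.0164 blocked).

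CDK1, CDK2 and CDK6 fell, and CDK4 did not pass. CDK1 (chr10:60778331-60794852, + strand, GRCh38), the kinase that drives entry into mitosis, measured 37.2, 20.8 and 19.6 TPM with si-cDCBLD2 and 54.7, 31.4 and 29.8 TPM with siCTRL. The groups overlapped, since replicate 1 was far above the others in both, yet each pair was lower after knockdown by nearly the same amount (-0.54, -0.57 and -0.59). CDK1 differed by -0.57 ± 0.32 on the log2 scale (limma adjusted p = 0.299 unblocked and 0.0044 blocked), and -0.12 after the GC offset with the block, where it did not pass (limma adjusted p = 0.213). CDK6, which with D cyclins phosphorylates RB, measured 11.3, 5.26 and 7.02 TPM against 15.1, 10.8 and 11.7 TPM. Replicate 1 of the knockdown lay inside the range of the controls and the other knockdown libraries below it. CDK6 differed by -0.66 ± 0.26 on the log2 scale (limma adjusted p = 0.175 unblocked and 0.0123 blocked). The value was -0.27 with the length offset and -0.26 after the GC offset with the block, where it passed just under the threshold (limma adjusted p = 0.0484). CDK2, the kinase of the G1 to S transition and S phase, measured 76.7, 74.2 and 72.7 TPM against 101, 82.0 and 88.5 TPM. The knockdown libraries were tightly grouped and all below the controls. Its difference was smaller, at -0.27 ± 0.089 (limma adjusted p = 0.128 unblocked and 0.0217 blocked), and -0.17 with upper-quartile scaling and the block, where it did not pass (limma adjusted p = 0.0621). CDK4, the other D cyclin kinase and the member with the highest level, measured 514, 494 and 475 TPM against 534, 479.6 and 475 TPM. The ranges overlapped almost fully, with a log2 fold change of -0.0052 ± 0.072 that became 0.097 with upper-quartile scaling (limma adjusted p = 0.969 unblocked and 0.927 blocked).

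Both CKS proteins, small adaptors that dock CDKs onto phosphorylated substrates, fell, and their groups did not overlap. CKS1B, which also helps SKP2 to recognise the inhibitor p27, measured 292, 308 and 262 TPM with si-cDCBLD2 and 421, 344 and 351 TPM with siCTRL. The knockdown libraries were all under the lowest control library, and replicate 1 stood out among the controls. CKS1B differed by -0.37 ± 0.10 on the log2 scale (limma adjusted p = 0.09999 unblocked and 0.0176 blocked). CKS2, its paralog, measured 272, 211 and 212 TPM against 328, 312 and 303 TPM. Replicate 1 was the highest of each group, and the knockdown libraries were all under the controls. CKS2 differed by -0.45 ± 0.11 on the log2 scale (limma adjusted p = 0.0835 unblocked and 0.0081 blocked). After the GC offset with the block the values were -0.09 for CKS1B and -0.10 for CKS2, and neither passed (limma adjusted p = 0.505 and 0.106). Both promoters held the CHR letters close to the start, at position -30 in CKS1B (chr1:154974561-154974680, + strand) and at -29 on the other strand in CKS2 (chr9:89311075-89311194, + strand), each with a pair of CCAAT boxes upstream of it within the bases shown. They are shown as the 120 bases before the start, 5′ to 3′, with these motifs in capitals.
CKS1B: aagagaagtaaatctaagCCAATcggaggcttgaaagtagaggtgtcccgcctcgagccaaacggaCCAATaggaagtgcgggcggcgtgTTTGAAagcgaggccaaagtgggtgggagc
CKS2: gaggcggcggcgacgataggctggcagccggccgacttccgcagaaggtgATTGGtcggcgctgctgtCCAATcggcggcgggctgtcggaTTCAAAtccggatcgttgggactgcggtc

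Of 7 genes for CDK inhibitors and the CDK phosphatase KAP, 2 fell (CDKN1B and CDKN3, beside 25.0% of all genes), 4 did not pass, and CDKN1C, the p57 inhibitor, was too low to be tested, with 6 to 17 recovered reads a library. CDKN1B encodes p27, the inhibitor of cyclin E and cyclin A kinases, and measured 73.6, 115 and 111 TPM with si-cDCBLD2 and 114, 136 and 143 TPM with siCTRL. Unlike CCNA2, CCNB1 and CDK1, it was lowest in replicate 1 of both groups, and the groups overlapped. CDKN1B differed by -0.41 ± 0.19 on the log2 scale (limma adjusted p = 0.221 unblocked and 0.0164 blocked), and -0.27 after the GC offset with the block, where it did not pass (limma adjusted p = 0.0747). Without replicate 1 of si-cDCBLD2 alone the difference was -0.20, and without replicate 1 of both groups it was -0.30. CDKN3 (KAP), a phosphatase that removes the activating phosphate from CDKs, measured 33.2, 22.1 and 20.6 TPM against 46.0, 31.5 and 34.3 TPM. Replicate 1 was the highest of each group, and each pair was lower after knockdown. CDKN3 differed by -0.55 ± 0.22 on the log2 scale (limma adjusted p = 0.169 unblocked and 0.0066 blocked), and -0.29 after the GC offset. Among the INK4 inhibitors of CDK4 and CDK6, CDKN2A had means of 62.8 ± 6.65 and 67.1 ± 1.92 TPM after knockdown and in controls, CDKN2B 20.1 ± 1.28 and 20.8 ± 0.434 TPM, CDKN2C 28.3 ± 2.87 and 33.8 ± 9.44 TPM, and CDKN2D 9.39 ± 0.929 and 11.0 ± 0.369 TPM. None of these INK4 genes passed in either fit, and the CDKN2A value cannot separate p16 from ARF, which share the gene.

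Of the CDC25 phosphatases, which remove the inhibitory phosphates from CDKs, and the WEE1 family kinases, which add them, 3 of 5 fell. CDC25B, an activator of CDK1 at mitotic entry, measured 185, 195 and 198 TPM with si-cDCBLD2 and 242, 235 and 227 TPM with siCTRL. The knockdown libraries all lay below the controls, and replicate 1 did not stand out. CDC25B differed by -0.28 ± 0.061 on the log2 scale (limma adjusted p = 0.0673 unblocked and 0.0122 blocked), and -0.17 with the length offset. CDC25C, the other mitotic CDC25, measured 6.68, 5.66 and 4.62 TPM against 9.52, 7.75 and 6.75 TPM. Replicate 1 of the knockdown came within 0.1 TPM of replicate 3 of the controls without crossing it. CDC25C differed by -0.44 ± 0.17 on the log2 scale (limma adjusted p = 0.169 unblocked and 0.0142 blocked). The kinase WEE1 had means of 47.0 ± 8.23 and 61.1 ± 10.2 TPM, overlapping groups and a log2 fold change of -0.37 (limma adjusted p = 0.220 unblocked and 0.0155 blocked), which became 0.058 after the GC offset. CDC25A, which acts from the entry into S phase on, had means of 17.8 ± 8.47 and 17.3 ± 3.54 TPM, and the membrane-bound kinase PKMYT1 37.9 ± 4.20 and 37.7 ± 8.58 TPM, and neither passed. For CDC25C, 1 of its 4 promoter entries (chr5:138331805-138331924, - strand) held the CHR letters at position -30 and a CCAAT box, in capitals in the 120 bases before the start, 5′ to 3′.
CDC25C: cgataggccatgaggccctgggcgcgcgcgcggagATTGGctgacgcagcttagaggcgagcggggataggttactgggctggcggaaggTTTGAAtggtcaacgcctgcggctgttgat

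All 3 RB family genes, whose proteins bind E2F factors and hold their targets silent, fell, although RB1 turned positive after the GC offset. RBL2 (p130, chr16:53433977-53491649 on the + strand of GRCh38), which forms the DREAM repressor with E2F4 and MuvB in resting cells, measured 36.3, 39.6 and 40.5 TPM with si-cDCBLD2 and 57.3, 59.6 and 65.0 TPM with siCTRL. The groups were well apart, and replicate 1 was the lowest library of each. The log2 fold change of -0.63 ± 0.081 passed without the block (limma adjusted p = 0.0444) and with it (limma adjusted p = 0.0044). After the GC offset the value was -0.33. The call without the block was lost with upper-quartile scaling, with no filter on low values, with no variance trend, and with the GC or length offset (limma adjusted p = 0.0571 to 0.227), and also when any 1 library other than replicate 1 of si-cDCBLD2 was left out (0.1505 to 0.222). RBL1 (p107), its relative in cycling cells, measured 8.28, 4.41 and 5.44 TPM against 12.9, 9.26 and 10.8 TPM. The highest knockdown library, replicate 1, was still under the lowest control library. RBL1 differed by -0.79 ± 0.22 on the log2 scale (limma adjusted p = 0.1004 unblocked and 0.0066 blocked), and -0.41 after the GC offset. RB1, the retinoblastoma gene, measured 5.72, 3.44 and 4.25 TPM against 6.66, 4.92 and 6.02 TPM. The groups overlapped through replicate 1 of the knockdown. RB1 differed by -0.34 ± 0.19 on the log2 scale (limma adjusted p = 0.293 unblocked and 0.0475 blocked) and by 0.10 after the GC offset. In the 120 bases before its start (chr20:37095998-37096117, - strand, 5′ to 3′), the RBL1 promoter held the E2F letters at positions -26 and -16, in capitals.
RBL1: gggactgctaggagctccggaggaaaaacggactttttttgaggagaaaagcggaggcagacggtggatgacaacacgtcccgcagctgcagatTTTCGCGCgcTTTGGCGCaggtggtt

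All 10 E2F and DP genes had a negative log2 fold change (beside 62.4% of all genes), which TFDP2, E2F5 and E2F6 lost after the GC offset and TFDP2, E2F1 and E2F4 with upper-quartile scaling. Of the 10, 3 fell (E2F5, E2F7 and E2F8), a share close to the 25.0% of all genes, and 7 did not pass. E2F8 (chr11:19224063-19241620, - strand, GRCh38), an atypical E2F that represses E2F targets late in S phase, measured 2.90, 2.59 and 2.21 TPM with si-cDCBLD2 and 7.84, 4.14 and 4.75 TPM with siCTRL. All knockdown libraries lay below all controls, and replicate 1 stood out in the controls alone. E2F8 differed by -0.84 ± 0.22 on the log2 scale (limma adjusted p = 0.0922 unblocked and 0.0127 blocked), the largest in size among the members, at 77 to 210 recovered reads a library. The other atypical repressor, E2F7, had means of 8.11 ± 1.87 and 13.0 ± 3.16 TPM and a log2 fold change of -0.62 ± 0.21 (limma adjusted p = 0.133 unblocked and 0.0060 blocked), which was -0.32 after the GC offset. E2F1, the best known activator of the family, measured 84.6, 76.5 and 72.3 TPM against 97.4, 72.7 and 72.4 TPM. Its ranges overlapped, and outside replicate 1 the groups were nearly the same (log2 fold change -0.043 ± 0.13, limma adjusted p = 0.860 unblocked and 0.633 blocked). E2F4, the main E2F of the DREAM repressor, measured 131, 108 and 98.9 TPM against 139, 113 and 102 TPM. Each pair differed by less than 0.1 on the log2 scale, and the groups by -0.067 ± 0.15 (limma adjusted p = 0.801 unblocked and 0.243 blocked). The pocket protein partner E2F5 fell by 0.27 on the log2 scale (limma adjusted p = 0.158 unblocked and 0.04997 blocked, just under the threshold), and turned to 0.15 after the GC offset. The activators E2F2 and E2F3, the repressor E2F6 and the dimerisation partners TFDP1 and TFDP2 had log2 fold changes between -0.30 (E2F3) and -0.011 (TFDP2), with blocked limma adjusted p-values from 0.0533 to 0.940.

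LIN54 fell, whereas LIN9, MYBL2 and FOXM1 did not pass. LIN54, the DNA-binding subunit of MuvB, which recognises the CHR element, measured 5.27, 2.87 and 3.07 TPM with si-cDCBLD2 and 8.25, 5.82 and 6.87 TPM with siCTRL. Replicate 1 was the highest of each group, and the groups did not overlap. LIN54 differed by -0.78 ± 0.22 on the log2 scale (limma adjusted p = 0.103 unblocked and 0.0082 blocked), and -0.37 after the GC offset. MYBL2 (B-MYB), which joins MuvB to activate its targets in S phase, measured 297, 228 and 232 TPM against 315, 209 and 215 TPM. Replicate 1 was by far the highest in each group, and the pairs differed in direction, lower in replicate 1 and higher in replicates 2 and 3. MYBL2 differed by 0.049 ± 0.18 on the log2 scale (limma adjusted p = 0.886 unblocked and 0.520 blocked), and -0.062 after the GC offset. FOXM1, the forkhead factor of G2 and mitotic genes, measured 186, 149 and 149.7 TPM against 247, 158 and 158 TPM. The difference lay mostly in replicate 1, with pairs at -0.40, -0.085 and -0.079, and the groups differed by -0.19 ± 0.19 overall (limma adjusted p = 0.564 unblocked and 0.103 blocked). The MuvB subunit LIN9 had means of 2.93 ± 1.55 and 4.25 ± 1.03 TPM and missed the threshold (limma adjusted p = 0.345 unblocked and 0.0562 blocked). LIN9 passed as lower in limma-voom with the block (limma-voom adjusted p = 0.0433).

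Both mitotic kinases fell. AURKA, which matures centrosomes and activates PLK1, measured 58.8, 45.7 and 42.2 TPM with si-cDCBLD2 and 90.2, 66.9 and 70.3 TPM with siCTRL. Its groups did not overlap, and each pair was lower after knockdown, by 0.61, 0.54 and 0.72 on the log2 scale. AURKA differed by -0.62 ± 0.16 on the log2 scale (limma adjusted p = 0.0892 unblocked and 0.0044 blocked). PLK1, the polo kinase that promotes mitotic entry and spindle assembly, measured 152, 107 and 103 TPM against 183, 126 and 125 TPM. The groups overlapped through replicate 1 of the knockdown, but the pairs were nearly equal, at -0.27, -0.24 and -0.27. PLK1 differed by -0.26 ± 0.21 on the log2 scale (limma adjusted p = 0.453 unblocked and 0.0088 blocked), but -0.12 with the length offset. The value was -0.44 without replicate 1 of si-cDCBLD2 alone, which kept the high replicate 1 of siCTRL, and -0.26 without replicate 1 of both groups. The PLK1 promoter (chr16:23678769-23678888, + strand) held the CHR letters at position -29 and a CCAAT box at -73, in capitals in the 120 bases before the start, 5′ to 3′.
PLK1: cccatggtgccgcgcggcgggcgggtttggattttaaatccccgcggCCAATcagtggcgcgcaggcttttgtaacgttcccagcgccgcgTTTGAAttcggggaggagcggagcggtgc

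CDC20 and SKP2 fell and FZR1 rose. CDC20, the activator of the APC/C in mitosis, measured 163, 125 and 123 TPM with si-cDCBLD2 and 224, 167 and 161 TPM with siCTRL. Replicate 1 of the knockdown lay among the controls, and the other knockdown libraries were below them. CDC20 differed by -0.42 ± 0.16 on the log2 scale (limma adjusted p = 0.171 unblocked and 0.0046 blocked), and -0.50 after the GC offset. SKP2, the F-box protein that marks p27 for destruction, measured 12.9, 9.51 and 9.28 TPM against 17.6, 13.4 and 15.4 TPM. The highest knockdown library was just under the lowest control library. SKP2 differed by -0.51 ± 0.16 on the log2 scale (limma adjusted p = 0.117 unblocked and 0.0096 blocked), but -0.16 after the GC offset with the block, where it did not pass (limma adjusted p = 0.118). FZR1 (CDH1), the activator that takes over from CDC20 in late mitosis and G1, had means of 23.0 ± 1.39 and 19.5 ± 0.834 TPM with no overlap and rose by 0.22 on the log2 scale (limma adjusted p = 0.158 unblocked and 0.0339 blocked), but not after the GC offset (limma adjusted p = 0.315). The CDC20 promoter (chr1:43358861-43358980, + strand) held the CHR letters at position -65 between a pair of CCAAT boxes, in capitals in the 120 bases before the start, 5′ to 3′, and outside these bases again at -178 on the other strand.
CDC20: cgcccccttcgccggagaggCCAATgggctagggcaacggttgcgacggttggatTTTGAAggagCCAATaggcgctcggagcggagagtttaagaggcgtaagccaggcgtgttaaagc

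Other genes of the pathway were counted from lists fixed together with the members. The lists held 17, 5, 4, 6, 21 and 2 tested genes. Over all of them 30 genes fell and 1 rose with the block. Once the GC offset was added 11 fell and 3 rose (beside 12.2% and 13.1% of all genes). With upper-quartile scaling in its place 16 fell and 3 rose (beside 15.3% and 16.4%). The counts of each list below stand beside 25.0% of all genes lower and 9.94% higher in the same blocked fit. Of 17 APC/C subunits and their E2 enzymes, which build ubiquitin chains on mitotic proteins, 10 fell and 0 rose with the block, with a median log2 fold change of -0.31 beside -0.08 for all genes. The furthest was ANAPC1, the scaffold subunit, at 12.1 ± 2.096 TPM after knockdown and 22.8 ± 1.82 TPM in controls (SD, n = 3 each). Its log2 fold change was -0.87 (limma adjusted p = 0.0512 unblocked and 0.0045 blocked). Of 5 SCF genes, which form the ubiquitin ligase that SKP2 serves, 4 fell and 0 rose with the block, and CUL1, the cullin scaffold, was furthest at -0.42. Of 4 MuvB and MYB genes 2 fell, and MYBL1 was furthest at -0.80 (limma adjusted p = 0.202 unblocked and 0.0078 blocked). Of 6 Greatwall and PP2A-B55 genes, which set the phosphatase opposed to CDK1, 3 fell and 1 rose, PPP2R1A, and MASTL, the Greatwall kinase, was furthest at -0.53. Among 21 tested cyclins and CDKs of other functions, mostly in transcription, 9 fell and 0 rose. CCNG1, a p53 target, was the 1 of these that fell without the block too, at 14.7 ± 1.77 TPM after knockdown and 31.2 ± 1.51 TPM in controls (log2 fold change -1.05 ± 0.11, limma adjusted p = 0.0444 unblocked and 0.0044 blocked). Of the markers of cycling cells, MKI67 measured 28.6 ± 11.9 TPM against 60.3 ± 20.1 TPM (log2 fold change -1.07, limma adjusted p = 0.113 unblocked and 0.0044 blocked), and PCNA, whose groups overlapped, differed by -0.35 (limma adjusted p = 0.351 unblocked and 0.0094 blocked).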

How the data were processed

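PolyA-Seq libraries of HCCLM3-SR cells (3 si-cDCBLD2, 3 siCTRL, grouped by their labels) were described by the TPM values that the authors deposited per gene. The submitters' processing notes name fastp 0.20.1, HISAT2 2.1.0, StringTie 2.0 and hg38, and strand and multimapping settings are not given in the sources used here, so levels of genes with overlapping neighbours or processed copies (such as CKS1B) are uncertain. TPM holds no depth. Ratios of low values gave whole reads (100% of 17285 genes within 0.02 reads), as lower bounds.

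The 13980 genes averaging 1 TPM or more were tested as log2(TPM + 1) with limma 3.58.1 in R 4.3.3 (eBayes with a trend in the variance, p-values adjusted over all of them by Benjamini-Hochberg), in place of the count test of the study's methods. The labels do not say what a shared replicate number marks. The numbers were treated as pairs because deviations of same-numbered libraries correlated at 0.56, 0.343 and 0.362 across genes. The other correlations were -0.45 to -0.376, except 0.215 and 0.247 between replicates 2 and 3, so mainly replicate 1 was set apart. A fit with the replicate block was added on this assumption, which was drawn from the same libraries. The GC offset removed each library's loess trend (span 0.5) with the GC content of the longest GENCODE 29 transcript, known for 92.8% of genes tested. Other alternatives were upper-quartile scaling, other filters, a pseudocount of 0.1, a length offset, limma-voom on recovered reads and leaving out libraries. The tests were checked on simulated data, in which the changed genes differed by more than any member did here. This check did not cover differences of the members' size or library trends with GC content.

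Per-library values are given for the member with the highest level and the one with the largest fold change in each role, for members called without the block, and for 16 core genes. Members and lists were chosen with earlier results of these data known.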

Additional observations from a re-analysis of the deposited data

How the results depend on the processing

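Upper-quartile scaling, no filter on low values, no mean-variance trend, the GC offset and the length offset each left 0 members lower; a mean of at least 5 TPM and limma-voom on recovered reads gave 2, and 0 were higher under all of these. With the replicate block the counts were 26 lower and 3 higher, with the block and the GC offset 17 and 1, and with the block in limma-voom 25 and 4. The limma-voom fit with the block held 51 members, and the share of all genes was not counted for it. It added E2F3 and LIN9 as lower and CCNF as higher (limma-voom adjusted p = 0.0436, 0.0433 and 0.0457). Shares of all genes were counted only for the fits where they are given above. Added after the data were seen, upper-quartile scaling with the block gave 23 and 3, leaving out replicate 1 of both groups 25 and 1, and doing so with the block 28 and 3. Leaving out 1 library gave 0 to 19 lower members and 0 higher. The cause of these shifts was not tested. The members' median of -0.29 moved to -0.20 with upper-quartile scaling, with or without the block, -0.15 with the GC offset, with or without the block, -0.19 with the length offset, -0.21 in limma-voom with and without the block, and between -0.37 and -0.26 with 1 library left out. Non-overlapping members numbered 21 lower and 2 higher, 15 lower with the GC offset, 4 higher with upper-quartile scaling and 3 higher with the length offset. Without replicate 1 of both groups they numbered 37 lower and 5 higher, and with 1 library left out 21 to 34 lower and 2 to 5 higher. With fewer libraries such a count can only stay or rise, since fewer values have to lie apart. The share of all genes was counted for all 6 libraries alone (22.3% lower and 9.58% higher).

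Of the other pathway genes, 1 was lower and 0 higher without the block; 0 were lower with upper-quartile scaling, no filter, no trend and the GC offset, 2 with the 5 TPM minimum, pseudocount 0.1, the length offset and limma-voom, and 0 to 20 with 1 library left out. With the block 30 were lower and 1 higher, with the block and GC offset 11 and 3, in blocked limma-voom 27 and 3, with block and upper-quartile scaling 16 and 3, and without replicate 1 of both groups 23 and 2, or 28 and 2 with the block.

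Of 579 values of 29 named genes under 20 alternatives, 407 kept direction and side of the threshold, 127 passed newly, 10 no longer passed, all for RBL2, and 35 changed sign. These were, with the GC offset with and without the block, CDK7 (0.0918), RB1 (0.1029) and MYBL2 (-0.0624); with upper-quartile scaling, with and without the block, CDK4 (0.0968), E2F1 (0.0579) and E2F4 (0.0342); with the length offset CCND1 (0.0019), CDK4 (0.0182) and E2F1 (0.0057); in limma-voom CDK4 (0.0929), E2F1 (0.0577) and E2F4 (0.0310), and with the block 0.0932, 0.0549 and 0.0300; without replicate 1 of both groups, in both fits, CDK4 (0.0204) and E2F1 (0.0354); and, as ranges with 1 library left out, CDK4 (-0.0353 to 0.0485), E2F1 (-0.1146 to 0.0966), E2F4 (-0.1789 to 0.0570), MYBL2 (-0.0735 to 0.2377) and FOXM1 (-0.2974 to 0.0239).

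Depth limits CCNE2, with 576 recovered reads over 6 libraries, and CDKN1C most. TPM is relative to each library's total, so a shift of all transcripts would not be seen.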

Other observations

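A few members did not move as their groups did. CDC25A, the S phase phosphatase, was higher in the replicate 1 pair (0.35) and lower in the replicate 2 and 3 pairs (-0.13 and -0.32), with replicate 1 of si-cDCBLD2 at 27.5 TPM and the other 5 libraries between 12.1 and 21.4 TPM. TFDP2, a dimerisation partner of E2F factors, measured 12.1 to 12.2 TPM in the 3 knockdown libraries and 10.4 to 13.8 TPM in the controls. CDKN2A, listed at 55.1 to 68.4 TPM in all 6 libraries, was lower in the replicate 1 pair (-0.31) and nearly equal in the others (-0.03 and 0.04). These differences between pairs were not tested.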
